A study of Homo sapiens with 34 samples.

Results

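A set of 10 autophagy genes were followed in U2OS, a cell line from a human bone tumor, here with luciferase under the control of the *Bmal1* promoter (*Bmal1*:*luc*). The genes were taken by name from the locus table, and each of the 10 names matched 1 of the 28690 loci measured. The set holds the cargo receptors *SQSTM1* and *NBR1*, the ATG8 proteins *MAP1LC3B*, *GABARAP*, *GABARAPL1*, and *GABARAPL2*, the early factors *ULK1* and *WIPI1*, and the mitophagy receptors *BNIP3* and *BNIP3L*. RNA was sequenced every 4 hr at 12 time points, labelled hour 0 to hour 44, from cells synchronized with dexamethasone and cultured with 5 mM 6-aminonicotinamide (6AN), an inhibitor of the pentose phosphate pathway, or with DMSO as control. This gave 12 control and 12 6AN libraries, with 1 library per condition and time point. BMAL1, CLOCK, H3K9ac, H3K4me3, and input chromatin were sequenced after 24 hr in 5 mM 6AN or DMSO, with 1 library each. Control and 6AN cells share the line, the reporter, and the synchronization.

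Autophagy delivers cytoplasm to the lysosome inside a double-membrane vesicle, the autophagosome. The ULK1 kinase complex starts the process, a lipid kinase marks the growing membrane with PI3P, and WIPI proteins read that mark. ATG8 proteins are then joined to the membrane lipid, where receptors such as p62, the product of *SQSTM1*, dock their cargo. *SQSTM1* is also a textbook target of NRF2, the redox-sensitive transcription factor, and *BNIP3* of the hypoxia-inducible factors. Because receptors and lipidated ATG8 proteins are themselves degraded with the cargo, an mRNA level says nothing by itself on the flux through the pathway, which was not measured here.

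The sequence before the transcription start is given for the 3 genes whose start lies within 150 bases of the centre of a BMAL1 peak interval, among those with a promoter sequence at hand, since the binding data bear on them (RefSeq, GRCh38.p14, 250 bases before the start, 5′ to 3′ on the strand of the gene). Capitals mark matches to the E-box CACGTG, the letters bound by BMAL1/CLOCK, and to TGACNNNGC, the core of the antioxidant response element.
BNIP3, chr10:131981924-131982173, minus strand: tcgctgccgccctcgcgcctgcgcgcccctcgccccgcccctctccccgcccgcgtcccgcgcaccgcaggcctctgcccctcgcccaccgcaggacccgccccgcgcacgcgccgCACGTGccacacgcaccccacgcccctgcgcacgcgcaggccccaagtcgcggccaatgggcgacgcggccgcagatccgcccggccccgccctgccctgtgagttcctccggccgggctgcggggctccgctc
MAP1LC3B, chr16:87392086-87392335, plus strand: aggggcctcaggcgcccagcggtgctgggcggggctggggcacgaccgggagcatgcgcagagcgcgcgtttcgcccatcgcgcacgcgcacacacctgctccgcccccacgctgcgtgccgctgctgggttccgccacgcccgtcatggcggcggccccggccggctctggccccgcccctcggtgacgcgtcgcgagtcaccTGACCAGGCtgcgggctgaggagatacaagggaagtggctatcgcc
ULK1, chr12:131894372-131894621, plus strand: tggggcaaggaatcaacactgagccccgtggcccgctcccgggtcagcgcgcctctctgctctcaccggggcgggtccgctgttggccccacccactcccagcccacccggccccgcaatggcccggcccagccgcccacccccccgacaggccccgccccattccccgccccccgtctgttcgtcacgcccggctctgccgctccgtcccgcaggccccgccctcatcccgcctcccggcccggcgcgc
Promoter sequence was at hand for 9 of the 10 genes, at 12 starts, and windows of 250 bases before to 50 after each start were searched on both strands. *BNIP3* held the only E-box among them, at bases 134 to 129 before its start (chr10:131982052-131982057), and 7.26% of all 35116 promoters held one. *MAP1LC3B* held the only TGACNNNGC, at bases 46 to 38 before its start (chr16:87392290-87392298), against 13.3% of all promoters. TTGCATCA, the element bound by ATF4 with its C/EBP partners, was in none of the 12 and in 0.866% of all. A match is a run of letters and not a measured site.

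All 10 genes were expressed, with a mean FPKM (reads scaled by transcript length and library depth) over the 24 libraries above the minimum of 0.7 that left 14678 loci, and none was at 0 in any library. FPKM is per length, so levels are set side by side between genes as a description. The part of reads from overlapping genes or near copies in this order was not tested. In control, *SQSTM1* (200.4 ± 18.8, SD over 12 time points) and *GABARAP* (190 ± 13.4) were the most abundant, and their ranges overlapped. *GABARAPL2* followed at 107 ± 8.11 and did not overlap with either. *GABARAPL1* (61.9 ± 6.91), *BNIP3L* (58.9 ± 2.81), and *MAP1LC3B* (55.5 ± 3.84) overlapped with each other, and *NBR1* lay just below them at 42.2 ± 2.01, with a range that touched that of *WIPI1*. *WIPI1* (35.3 ± 3.47), *BNIP3* (15.7 ± 1.65), and *ULK1* (12.2 ± 0.892) were lowest, and of these *BNIP3* and *ULK1* overlapped. In 6AN *SQSTM1* stood alone at 290 ± 27.6, since its lowest value of 249.8 was above the highest *GABARAP* value of 193.

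Some facts of the libraries bear on all of these values. The control and 6AN tables were normalized separately, so no test was run across them, and a 6AN value was set against the control value of the same time point as a description. Read depth was not given. It was estimated relative to the other libraries of a table, from the commonest ratio between libraries of low FPKM values of the same locus. The estimates ran from 0.581 to 1.31 of the median in control and from 0.697 to 1.55 in 6AN. The control library of lowest estimated depth, hour 4, held the lowest control value of 5 of the 10 genes (*SQSTM1*, *NBR1*, *MAP1LC3B*, *GABARAPL1*, and *WIPI1*). How many of all expressed loci were lowest in that library was not counted. Treatment and culture series cannot be told apart, and time points of 1 series are not replicates, so an SD over time holds both noise and change. Of the osteoblast-lineage markers, *RUNX2* was at 14.0 in control and 13.9 in 6AN, *COL1A1* at 128 and 33.9, and *SPARC* at 323 and 129. *ALPL* was at 6.41 and 3.73 and *SPP1* at 2.07 and 4.00, so that of the 5 markers expressed at a locus of their own 3 were lower in 6AN at all 12 time points and 1, *SPP1*, was higher. *SP7*, *COL1A2*, and *IBSP* were below 0.7, and *BGLAP* shared a locus with other genes. The markers of blood, endothelium, and liver (*PTPRC*, *PECAM1*, *CDH5*, *CD3E*, *ALB*) were all below 0.7, and epithelial *EPCAM* was at 1.02 and 0.734. Less RNA per cell and fewer cells of a kind cannot be told apart in such bulk samples, and the part of these marker differences in the results was not tested.

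In 6AN, 4 of the 10 genes were higher than control at all 12 matched time points: *SQSTM1*, *BNIP3*, *MAP1LC3B*, and *WIPI1*. None was lower at all 12. Over all 14678 expressed loci, 12.6% were higher and 19.8% were lower at all 12. The 10 genes were chosen with earlier results of these data known. The median of the 10 mean log2 ratios was 0.07, beside -0.04 for all expressed loci. Each functional class held 1 gene of the 4, and the other 6 genes lay between -0.12 and 0.08.

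**Figure D1:**
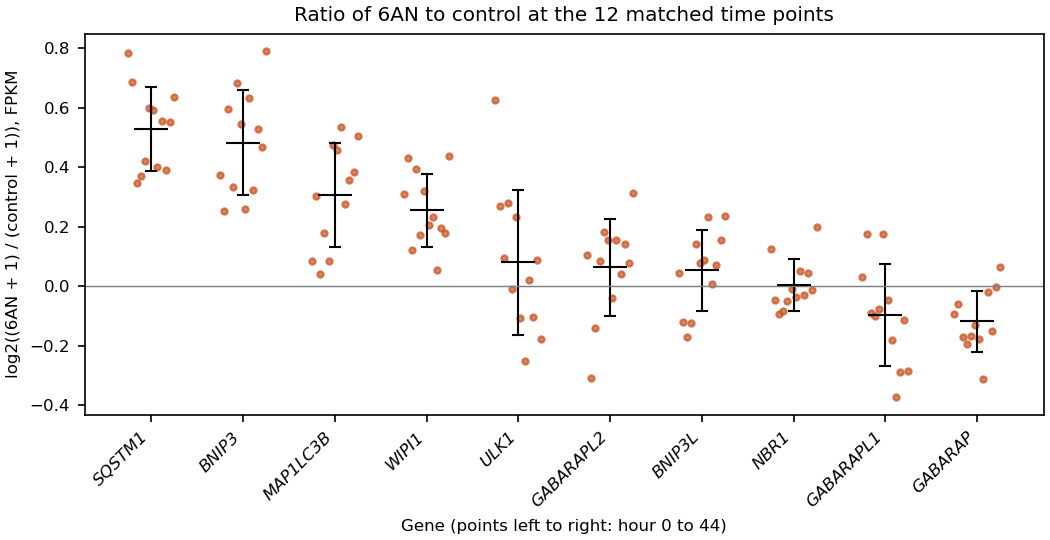
The log2 ratio of 6AN to control FPKM, each plus 1, for the 10 autophagy genes at the 12 matched time points (points, ordered from hour 0 to hour 44 within a gene), with the mean and SD over time points (bars). *SQSTM1*, *BNIP3*, *MAP1LC3B*, and *WIPI1* lie above 0 at all 12, and scaling each library's FPKM to 1000000 leaves *SQSTM1* and *BNIP3* there.

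This count depended on how the tables are put on one scale. When every library's FPKM was scaled to sum to 1000000, a setting chosen after seeing the data, the median of all expressed loci moved to -0.20, with 6.00% of loci higher and 33.4% lower at all 12 time points. *SQSTM1* (0.34) and *BNIP3* (0.30) were higher at all 12 there too, *MAP1LC3B* (0.12) was higher at 9 and *WIPI1* (0.07) at 6, and *GABARAP* (-0.31) and *BNIP3L* (-0.13) were lower at all 12. The mean ratios of *NBR1* (-0.18), *GABARAPL2* (-0.13), and *ULK1* (-0.10) also came to lie below 0. The sum rests heavily on short or multi-copy loci: *MIR6723* and *MIR4461* alone held 31.1 to 34.5% of it in control and 34.8 to 41.0% in 6AN. Without them in the sum, a setting also chosen after seeing the data, the same scaling gave 0.25 for *MAP1LC3B* and 0.20 for *WIPI1*. Each was higher at 11 of 12, and 9.88% of all expressed loci were higher and 23.1% lower at all 12.

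*SQSTM1* encodes p62, which binds ubiquitinated cargo and tethers it to ATG8 proteins. Its FPKM ran from 171 through a median of 199 to 234 in control and from 249.8 through 293 to 341 in 6AN. The ranges did not overlap, and it was the only one of the 10 of which this was so (5.66% of all expressed loci had all 6AN values above all control values, and 9.93% all below). The mean log2 ratio was 0.53 ± 0.14 (SD, n = 12 time points), 1.45-fold in the means, and higher than that of 93.3% of expressed loci. The ratio was widest at hour 0, at 1.72-fold, where 6AN was at 301 and control at 174, and narrowest at hour 8, at 1.27-fold. The mean log2 ratio was 0.54 over the first 6 time points and 0.52 over the last 6. The *SQSTM1* gene overlaps *MGAT4B* by 474 bases and *MRNIP* by 803, and strand use in the counting is not given in the sources used here. Both neighbours were also higher in 6AN at all 12 time points, *MGAT4B* by 0.30 ± 0.11 and *MRNIP*, listed as *C5orf45*, by 0.74 ± 0.15, and their part in the *SQSTM1* reading was not tested.

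*NBR1*, a related receptor of ubiquitinated cargo, showed no such difference. Its FPKM ran from 39.0 through 42.4 to 45.3 in control and from 37.8 through 42.8 to 47.1 in 6AN. The ranges covered each other almost entirely, 6AN was higher at 4 of 12 time points, and the mean log2 ratio was 0.01 ± 0.09. The *NBR1* gene overlaps the non-coding *LOC124900391* by 556 bases, whose part was not tested.

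*MAP1LC3B*, the ATG8 protein most used as a marker of autophagosomes, ran from 45.6 through 56.4 to 60.0 in control and from 54.4 through 73.2 to 80.9 in 6AN. In 10 of the 12 6AN libraries it was above the highest control value. The mean log2 ratio was 0.31 ± 0.18. It grew from 0.19 over the first 6 time points to 0.42 over the last 6, with 6AN at 61.2 in hour 16 and 76.0 in hour 20. Its near copy *MAP1LC3B2*, from which 50 bp reads could come, was at 2.01 in control and 2.97 in 6AN, far below it.

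The other ATG8 members, of the GABARAP branch that binds many of the same receptors, did not share this. *GABARAP* itself ran from 170 through 188 to 211 in control and from 162 through 173 to 193 in 6AN. It was lower in 6AN at 11 of 12 time points, the exception being hour 44, and the mean log2 ratio was -0.12 ± 0.10. *GABARAPL1* ran from 50.4 through 60.0 to 72.8 in control and from 54.1 through 57.0 to 64.4 in 6AN. Its mean log2 ratio of -0.10 ± 0.17 joined 0.02 over the first 6 time points with -0.21 over the last 6, at each of which 6AN was lower. *GABARAPL2* ran from 96.6 through 107 to 120 in control and from 81.6 through 117 to 131 in 6AN, and was higher at 9 of 12 with a mean of 0.06 ± 0.16. The summed FPKM of the 4 was 414 ± 20.8 in control and 414 ± 29.8 in 6AN. Within that sum the share of *MAP1LC3B* was 12.01 to 14.6% in control and 14.9 to 18.1% in 6AN. No scaling of a library can change these shares. They did not overlap, but the highest control share, 14.6%, lay just below the lowest 6AN share, 14.9%. How often the shares of genes in other families part in this way was not counted. *GABARAP* held on average 45.7% of the sum in control and 42.2% in 6AN, with overlapping ranges. The *GABARAP* gene overlaps *PHF23* by 821 bases and *GABARAPL1* overlaps *GABARAPL1-AS1* by 1419, and the part of these neighbours was not tested.

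**Figure D2:**
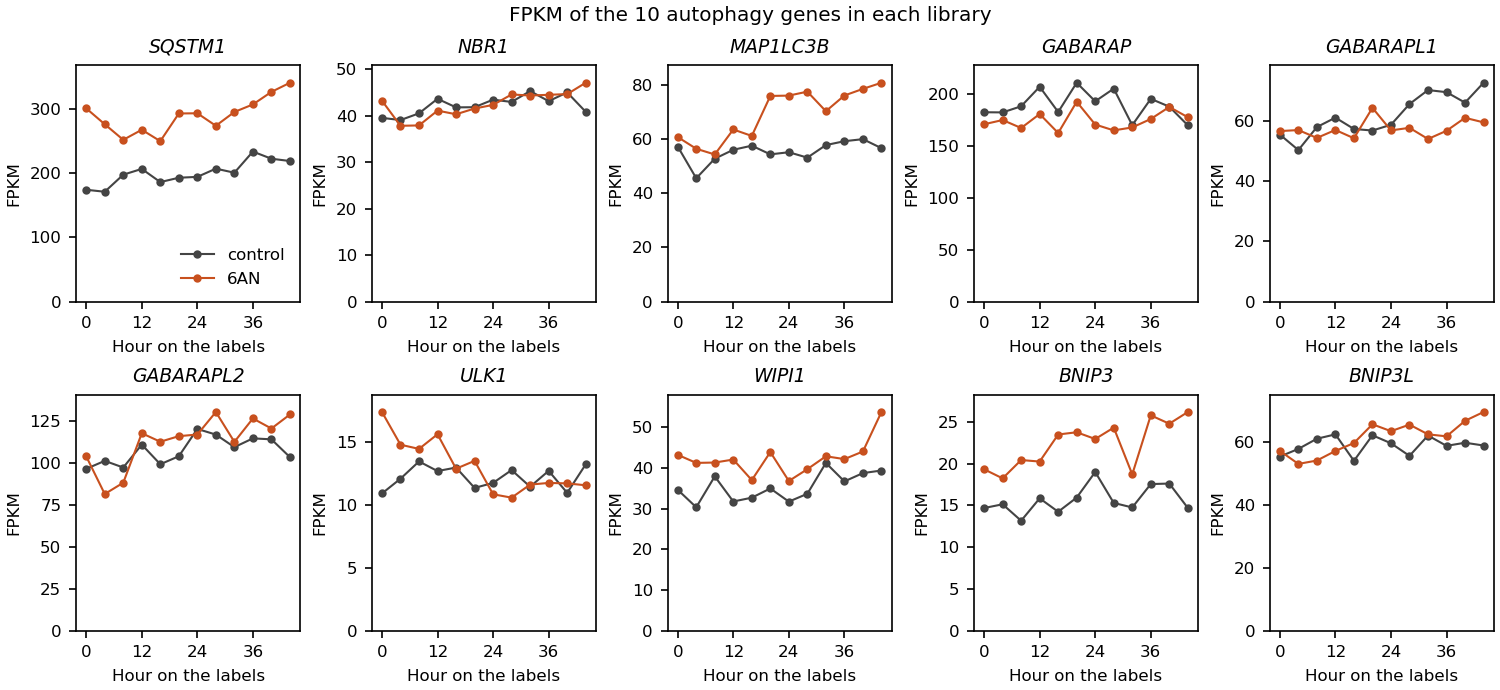
FPKM of the 10 autophagy genes (y axis, from 0) against the hour on the labels (x axis) in control (grey) and 6AN (orange), 1 library per point. *SQSTM1* is separate at every time point, *MAP1LC3B* parts from control after hour 16, *ULK1* starts at 17.4 in 6AN and ends at 11.6, and *GABARAPL1* reaches 72.8 in control alone.

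*ULK1*, the kinase that starts autophagosome formation, ran from 10.9 through 12.4 to 13.5 in control and from 10.6 through 12.3 to 17.4 in 6AN. The 5 6AN values above the whole control range stood at hour 0, 4, 8, 12, and 20. The log2 ratio was accordingly 0.25 over the first 6 time points and -0.09 over the last 6, so that its overall mean of 0.08 ± 0.24 describes neither. *WIPI1*, a PI3P reader on the early membrane, ran from 30.4 through 34.8 to 41.3 in control and from 36.8 through 42.2 to 53.8 in 6AN. It was higher at all 12 time points with a mean log2 ratio of 0.26 ± 0.12, and 9 of 12 6AN values were above the control range. Its locus shares a span with *ARSG* and *PRKAR1A*, which overlap the gene by 30739 and 36216 bases. *ARSG*, at 0.998 and 1.82 FPKM, was higher in 6AN at 12 time points, and the abundant *PRKAR1A*, at 177 and 165, was lower at 9, and neither's part in the *WIPI1* reading was tested.

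*BNIP3* and *BNIP3L* are mitophagy receptors of the outer mitochondrial membrane. *BNIP3* ran from 13.2 through 15.2 to 19.0 in control and from 18.2 through 23.2 to 26.2 in 6AN. In 10 of 12 6AN libraries it was above all of control, and the mean log2 ratio of 0.48 ± 0.18, 1.43-fold in the means, exceeded that of 91.9% of expressed loci. The *BNIP3* gene overlaps *PPP2R2D* by 3850 bases, whose part in the *BNIP3* reading was not tested. *BNIP3L*, which clears mitochondria from maturing red cells, ran from 53.9 through 59.2 to 62.3 in control and from 53.0 through 62.0 to 69.4 in 6AN. It was higher at 9 of 12 with a mean log2 ratio of 0.05 ± 0.14, from -0.03 over the first 6 time points to 0.13 over the last 6, at each of which it was higher.

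Trends over time were tested within each table, which needs no common scale, with a linear time term beside a 24 hr cosine and sine (limma's moderated test, Benjamini-Hochberg adjusted over all expressed loci). In control, *GABARAPL1* and *SQSTM1* rose and none of the 10 fell, while 2.47% of expressed loci rose and 2.79% fell. *GABARAPL1* rose by 0.24 ± 0.04 per 24 hr (log2, SE, limma adjusted p = 0.0101), and was higher in the second cycle than in the first at 6 of 6 matched hours. *SQSTM1* rose by 0.17 ± 0.04 (limma adjusted p = 0.0241, 6 of 6 hours), a call lost without hour 0, 28, 40, or 44 (limma adjusted p from 0.0510 to 0.0787) or when the last 6 time points were set against the first 6 (0.0564).

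In 6AN, *MAP1LC3B*, *BNIP3L*, and *NBR1* rose and *ULK1* fell, where 10.4% of all expressed loci rose and 12.5% fell. *MAP1LC3B* rose by 0.30 ± 0.05 per 24 hr (limma adjusted p = 0.00243, 6 of 6 hours). *BNIP3L* rose by 0.17 ± 0.03 (limma adjusted p = 0.00199, 6 of 6 hours). *NBR1* rose by 0.13 ± 0.03 (limma adjusted p = 0.0239, 5 of 6 hours), a call lost without hour 16, 28, 32, or 44 (limma adjusted p from 0.0501 to 0.0632) or with the last 6 time points against the first 6 (0.0552). *ULK1* fell by 0.34 on the log2 scale (SE 0.06, limma adjusted p = 0.00512, 0 of 6 hours higher). *SQSTM1*, *GABARAPL2*, and *BNIP3* were near the threshold, with slopes of 0.16 ± 0.05, 0.23 ± 0.08, and 0.17 ± 0.06 and limma adjusted p of 0.0601, 0.0601, and 0.0678. In 6AN, 6 of the 10 genes had their highest value at hour 44 (*SQSTM1*, *NBR1*, *MAP1LC3B*, *WIPI1*, *BNIP3*, and *BNIP3L*), in a library estimated at 0.763 of the median depth. How many of all expressed loci were highest there was not counted, so this is not read as a trait of the 10 genes. The slope of *MAP1LC3B* in control was 0.06 ± 0.05, that of *ULK1* 0.01 ± 0.06, and that of *BNIP3L* 0.02 ± 0.04, and whether the slopes differed between the conditions was not tested.

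**Figure D3:**
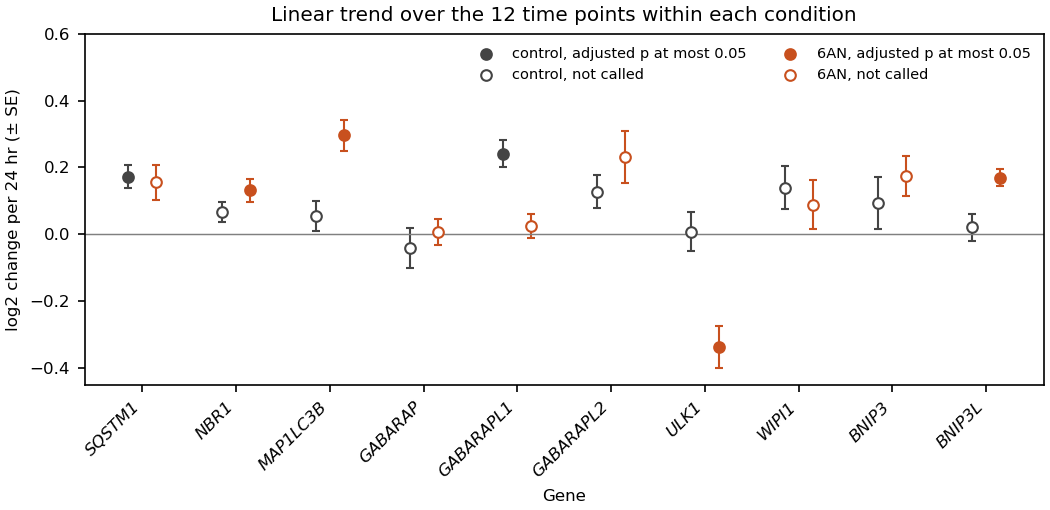
The linear change per 24 hr in log2(FPKM + 1) with its SE for the 10 autophagy genes, within control (grey) and within 6AN (orange), where filled points have a limma adjusted p of at most 0.05. Filled points above 0 are *SQSTM1* and *GABARAPL1* in control and *NBR1*, *MAP1LC3B*, and *BNIP3L* in 6AN, and *ULK1* in 6AN is the filled point below 0.

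No 24 hr rhythm was called for any of the 10 at p of at most 0.01, in either condition, by the harmonic limma test or by an umbrella rank test over 100000 random orders. The harmonic test called 1.42% of expressed loci in control and 1.94% in 6AN. At an unadjusted p under 0.05 it called 0 of the 10 in control and 1 in 6AN, *BNIP3L* (limma p = 0.0187, adjusted p = 0.544). Of all 14678 expressed loci it called 970 in control and 1138 in 6AN at that threshold. The umbrella test called 0 and 0 of the 10, and its share of all loci is not given. The lowest control p was that of *SQSTM1* (limma p = 0.0858, adjusted p = 0.780). The fitted peak-to-trough fold of *BNIP3L* in 6AN was 1.10. Both tests held the period fixed at 24 hr, and no other period was tested. The paper reports longer circadian periods when the pentose phosphate pathway is inhibited. A rhythm of longer period in 6AN could thus be missed, and the lack of calls there covers a 24 hr period only.

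The 9 further lists of autophagy genes held 99 genes, of which 90 were expressed at a locus of their own. Of these, 28 were higher and 7 lower in 6AN at all 12 time points, beside 12.6% and 19.8% of all expressed loci, and the median of their mean log2 ratios was 0.09. The lists were chosen with earlier results of these data known, and the shares among loci of similar FPKM were not counted. With FPKM scaled to 1000000 the counts became 13 and 21 (6.00% and 33.4% of all expressed loci). With each time point centred on the median of all expressed loci they were 32 and 7 (15.8% and 17.5%). Within the tables, 9 rose and 1 fell over time in control (2.47% and 2.79% of all expressed loci), and 25 rose and 7 fell in 6AN (10.4% and 12.5%).

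Among 13 other receptors 4 were higher and 1 lower, with a median of 0.03, from *TOLLIP* (0.53 ± 0.14), a ubiquitin-binding adaptor, to *FKBP8* (-0.29 ± 0.13), a mitophagy receptor. Of the other ATG8 genes *MAP1LC3B2* alone was expressed, while *MAP1LC3A*, *MAP1LC3C*, and *GABARAPL3* were below 0.7. None of the 5 ULK complex genes was called, with a median of 0.22 and a span from *ULK2* (0.24 ± 0.18) to *ATG13* (-0.03 ± 0.12). The 7 genes of the class III PI3K complexes, which make PI3P, held 1 higher and 1 lower, *ATG14* (0.47 ± 0.14) and *PIK3R4* (-0.26 ± 0.14), with a median of -0.06. Among the 9 PI3P effectors and lipid suppliers 4 were higher and 1 lower (median 0.13), from *ZFYVE1* (0.28 ± 0.21) to *VMP1* (-0.27 ± 0.11).

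The 10 genes of ATG8 and ATG12 conjugation, which attach and free the ATG8 proteins, held 1 higher and 1 lower (median -0.04). *ATG4D*, an ATG8 protease, had the largest ratio (0.35 ± 0.31, higher at 9 of 12) and *ATG10*, an E2-like enzyme, the smallest (-0.41 ± 0.22). Of 11 fusion genes 3 were higher and 1 lower (median 0.13), from the tether *EPG5* (0.53 ± 0.16) to the SNARE *VAMP8* (-0.96 ± 0.30), whose FPKM was 9.98 in control and 4.71 in 6AN. The 19 lysosomal genes held 8 higher and 1 lower (median 0.17). The protease *CTSB* went from 443 ± 95.6 to 1097 ± 143 FPKM (1.32 ± 0.15), while the galactosidase *GLA* was lower (-0.60 ± 0.22). Over time, 6 of the 19 rose and 0 fell in control, where 2.47% of all expressed loci rose, and 11 rose and 1 fell in 6AN, where 10.4% rose and 12.5% fell (limma). Of 15 upstream regulators 7 were higher and 1 lower (median 0.10), from *RRAGD* (1.03 ± 0.17), a GTPase of the mTORC1 branch at the lysosome, to *PRKAA1* (-0.27 ± 0.09), a catalytic subunit of AMPK.

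**Figure D4:**
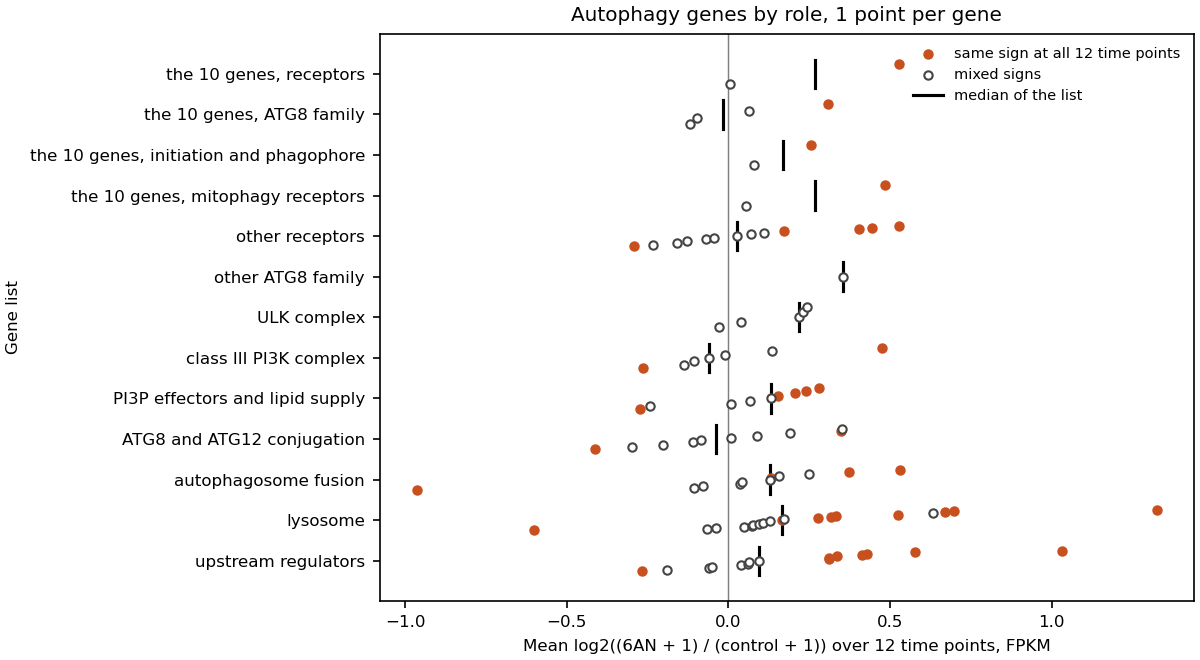
The mean log2 ratio of 6AN to control over 12 time points (x axis) for each expressed autophagy gene (1 point), by role (y axis), with the median of each list as a line. Filled points have the same sign at all 12 time points and spread to both sides of 0, from *VAMP8* at -0.96 to *CTSB* at 1.32.

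The genes whose pattern over time was most like that of *SQSTM1* differed by condition. In control they were *LY6E* (Pearson's r = 0.970 over 12 libraries), *MDK* (0.966), and *ITM2C* (0.958). In 6AN they were *SRXN1* (0.961), *NFE2L1* (0.947), and *SLC2A3* (0.936). *SRXN1*, the peroxiredoxin reductase sulfiredoxin and a target of NRF2, was at 25.8 FPKM in control and 53.8 in 6AN. *NFE2L1* was at 64.1 and 62.5, and *SLC2A3* at 20.2 and 27.6. The loci named for control were lower in 6AN, *LY6E* at 525 and 457, *MDK* at 698 and 516, and *ITM2C* at 188 and 137. Of the other 9 genes the closest to *SQSTM1* were *GABARAPL1* in control (0.864) and *NBR1* in 6AN (0.786), and *ULK1* in 6AN was at -0.32. The genes of a condition share the same 12 libraries and any drift over time.

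At the chromatin, BMAL1 peak intervals lay within 10 kb of 6 of the 10 genes in control and 5 in 6AN, where 14.4% and 19.6% of 13079 expressed genes had one. CLOCK intervals lay near 0 of the 10 in control and 1 in 6AN (2.26% and 9.43% of expressed genes). Each condition had 1 library per antibody, so a gain or loss between lists has no replicate check. At *BNIP3* the interval chr10:131981932-131982164, centred 125 bases before the start and spanning the E-box printed above, was listed for BMAL1 in both conditions and for CLOCK in 6AN. At *MAP1LC3B* the interval chr16:87392084-87392297 was listed for BMAL1 in both conditions, 146 bases before its start and 69.5 bases from that of the divergent neighbour *FBXO31*. At *ULK1* the interval chr12:131894486-131894686, 36 bases before the start, was listed for BMAL1 in control only. For *SQSTM1* the nearest interval, chr5:179819043-179819272, was 1748 bases before a start and held BMAL1 in both conditions. For *BNIP3L* an interval at its start, chr8:26382846-26383240, held BMAL1 in both conditions. The intervals near *GABARAP* were nearest to the starts of *PHF23* and *ELP5*, and none lay within 10 kb of *NBR1*, *GABARAPL1*, *GABARAPL2*, or *WIPI1*. When the wider locus spans of the FPKM tables were used, *WIPI1* also had BMAL1 and CLOCK intervals in 6AN, within a span it shares with other genes.

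*BNIP3* was the only one of the 10 with a site shared by BMAL1 and CLOCK, in the 439 sites of 6AN and not in the 147 of control (chr10:131981557-131982557, promoter, 126 bases before the start). Signal there, in tags per 10000000, was 25.5 in control and 25.96 in 6AN for BMAL1 (exact 95% Poisson intervals 15.3 to 39.8 and 15.5 to 39.1). For CLOCK it was 17.2 in control (6.90 to 35.4) and 30.8 in 6AN (16.8 to 51.6), from 7 and 14 tags. The intervals overlap, which is not a test of the difference, and none was run. The site was listed because BMAL1 and CLOCK had peaks there in 6AN, so a higher CLOCK value in 6AN is partly set by that choice. The median CLOCK signal over the 439 sites was 25.7 in control and 53.8 in 6AN. At the *BNIP3* site H3K4me3 was at 262 and 260, H3K9ac at 81.6 and 85.1, and input at 4.81 and 7.77. Among the 439 sites this one ranked 399th for CLOCK in 6AN and 131st for H3K4me3 in 6AN.

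**Figure D5:**
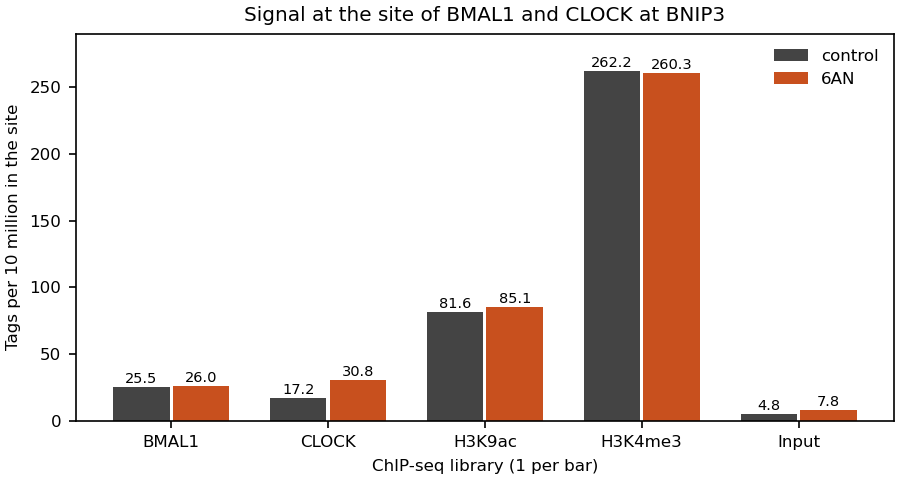
Tags per 10000000 (y axis, from 0) in the 1000 bp site at *BNIP3* for each ChIP-seq library in control (grey) and 6AN (orange), 1 library per bar. BMAL1 stands at 25.5 and 25.96, CLOCK at 17.2 and 30.8, and input at 4.81 and 7.77, and the CLOCK intervals for counting error overlap. The site was listed for its peaks in 6AN, which partly sets the higher CLOCK value there.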

How the data were processed

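RNA-seq (single-end, 50 bp reads) of 24 libraries and ChIP-seq of 10 libraries of *Bmal1*:*luc* U2OS cells were used as deposited. The authors deposited FPKM per locus of a merged annotation, in 1 table for control and 1 for 6AN, each normalized over its own 12 libraries. The submitters' processing notes name Bowtie, TopHat, Cufflinks, Bowtie2, HOMER, and hg38, without versions. The authors also deposited merged BMAL1 and CLOCK peak intervals, of which presence per library was used, and ChIP-seq signal at shared sites, as tags in 1000 bp per 10000000 tags. No per-sample column was left out.

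Loci with a mean FPKM of at least 0.7 were kept (14678), and a pseudocount of 1 was added before log2. A gene was called higher or lower in 6AN when it had the same sign at all 12 time points. Because the tables were normalized separately, tests ran only within a table: limma 3.58.1 in R 4.3.3, with time, cosine, and sine (24 hr period), calls at an adjusted p of at most 0.05 for time and p of at most 0.01 for rhythm, tested on simulated data. Other steps used Python 3.11.15, NumPy 2.4.6, pandas 2.3.3, SciPy 1.17.1, and matplotlib 3.10.9. Peak intervals were assigned to RefSeq genes of GRCh38.p14 within 10 kb. RNA was extracted in triplicate and the sources do not state how extracts became libraries, so the spread between libraries may be technical. The hours are those on the labels and need not count from the addition of 6AN. Read totals of the RNA-seq libraries are not known, and intervals for tags cover counting error only.

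The genes and lists were chosen with earlier results of these data known. All 10 genes are described, and in full those with the 3 largest and 3 smallest mean log2 ratios and any called for trend or rhythm. Each other list is given by its counts, its median, and its genes of largest and smallest ratio, without genes whose locus is shared. For likeness to *SQSTM1* the 3 loci of highest Pearson's r in each table are named. *SQSTM1*'s and *WIPI1*'s neighbours were chosen for their overlap, and of the markers all that were expressed at a locus of their own are given by value. Alternatives changed the pseudocount, the scaling, the loci kept, the model, the peak window, and the time points used.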

Additional observations from a re-analysis of the deposited data

How the results depend on the processing

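The 4 genes higher in 6AN at all 12 time points numbered 4 with a pseudocount of 0.1, with median centring, with upper-quartile scaling (15.9% of all expressed loci higher and 16.04% lower), and in all 12 sets that left out 1 time point. With FPKM scaled to 1000000 per library the count was 2 (6.00% of all expressed loci higher and 33.4% lower). It was also 2 without the 2 highest loci in the sum (9.88% and 23.1%). Over the first 6 time points it was 4 and over the last 6 it was 5 (18.1% and 19.9% of loci higher). Genes lower at all 12, none in the values reported, numbered 2 with FPKM scaled to 1000000. Genes lower at all 6 numbered 1 over the first 6 and 1 over the last 6 time points (26.7% and 28.1% of loci lower). With a time point left out, genes lower throughout numbered 0 to 1 (*GABARAP* without hour 44, where 20.5% of loci were lower). Trends in control numbered 1 (*GABARAPL1*) with the last 6 against the first 6 time points, and 1 to 2 with a time point left out. Trends in 6AN numbered 3 to 5 with a time point left out. Rhythms in 6AN numbered 1 (*BNIP3L*) with median scaling, and 0 to 1 with a time point left out. The shares of all expressed loci called for trend or rhythm under these settings are not given. These counts are thus not read as a trait of the 10 genes. Near-threshold trends in 6AN passed in some fits: *BNIP3* and *GABARAPL2* without the cosine and sine and by Spearman's rho, and *SQSTM1* with median scaling. Intervals counted within 1 or 50 kb, or by locus span, lay at 6, 7, and 7 genes. Of 13079 expressed genes, 10.99% had a BMAL1 interval within 1 kb in control and 24.4% within 50 kb. In 6AN these BMAL1 shares were 15.2% and 32.4%. The share of all genes by locus span is not given. The similar counts are thus not read as a trait of the 10 genes. No test paired the libraries of a shared hour, because the tables of the 2 conditions were normalized separately. Depth limits the CLOCK comparison at *BNIP3*, which rests on 7 and 14 tags, and with 1 library per time point no error between cultures can be given.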
